A study of Arabidopsis thaliana with 44 samples.

Results

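The 10 genes described here encode heat shock transcription factors (HSFs) of Arabidopsis thaliana: HSFA1A, HSFA1B, HSFA1D and HSFA1E of class A1, the further class A factors HSFA2, HSFA3, HSFA4A and HSFA7A, and the class B factors HSFB1 and HSFB2A. They were taken from the deposited table by locus identifier, and all 10 were among its 34133 loci. HSFs bind heat shock elements, inverted repeats of a short GAA unit, in the promoters of chaperone genes. Class A1 factors are present before stress, are held inactive by chaperones and start the heat response, HSFA2 and HSFA7A are induced in that response, and HSFB1 and HSFB2A belong to class B, whose members lack the activation motif of class A. HSFA3 is switched on by DREB2 factors in drought and heat, and HSFA4A is a phosphorylation target of the stress kinases MPK3 and MPK6.

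Whole seedlings grown without light for 14 days aboard the International Space Station (flight) were set against seedlings in the same hardware on Earth (ground), which was run 2 days later. Both conditions held 5 genotypes of Col-0 background: the single mutants bzip28-2 (below bzip28) and bzip60-2 (bzip60), the double mutants bzip28-2 bzip60-1 (bzip28bzip60) and ire1a-4 ire1b-2 (ire1aire1b), and wild type (WT). bZIP28, bZIP60 and the IRE1 proteins carry the unfolded protein response of the endoplasmic reticulum, and the mutants served to ask whether that response bears on the transcriptome in orbit. Every group had 4 libraries, each from pooled seedlings of 1 plate sown with 70 to 80 seeds on 0.5% sucrose, so 20 flight and 20 ground libraries were used. Mutant lines were 1 allele or allele pair each, and the labels name no second flight or ground run, so the p-values do not cover differences between runs.

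Levels are FPKM, fragment counts divided by transcript length and by the fragments mapped in the library, and can therefore be compared between genes. A single ribosomal RNA locus, AT2G01021, took 2.97% to 47.2% of all FPKM in flight libraries and 36.1% to 89.9% in ground libraries, which lowers every other value in a library where that share is large. Levels were therefore divided by a scale factor per library, the median ratio over 14104 genes (rescaled FPKM), and each change is followed in brackets by that of the FPKM as deposited. All changes are differences of log2(FPKM + 1) with a standard error (SE) from a linear model over all 40 libraries (limma), and a gene was called at a Benjamini-Hochberg adjusted p below 0.05. The median of all 19186 tested genes changed by 0.097 (as deposited 0.76) in flight against ground as a mean of the genotypes. The depth in reads is unknown, because the table holds no counts, and the spread of the libraries is the only measure of precision.

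As a check of the labels, transcript levels of the mutated genes were examined. IRE1A stood at 1.02 ± 0.052 rescaled FPKM in ire1aire1b flight libraries, against 27.1 ± 1.83 in WT flight libraries, IRE1B at 3.97 ± 0.492 in ire1aire1b flight libraries, against 7.03 ± 0.743 in WT flight libraries, and bZIP60 at 11.6 ± 1.57 in bzip60 flight libraries, against 27.4 ± 2.93 in WT flight libraries (SD, n = 4 each). bZIP28 was at 3.87 ± 0.201 in bzip28bzip60 flight libraries but at 85.4 ± 12.9 in flight libraries labelled bzip28, against 17.1 ± 0.998 in WT flight libraries (SD, n = 4 each). Both mutants are labelled with the allele bzip28-2, so the libraries labelled bzip28 went against their label by this measure, where a partial transcript and a label that does not match the plants cannot be told apart. The label is kept below as "libraries labelled bzip28" where a direction rests on it. Whole seedlings were checked against organ markers. The 4 shoot markers together ranged from 1007 to 1910 rescaled FPKM in flight libraries and from 173 to 656 in ground libraries, without overlap. The largest part was RBCS1A, with a median of 982 in flight and 320 on the ground (change 1.75). The other 3, CAB1, PDF1 and LTP1, changed by 1.22, 3.65 and 3.42. The 5 root markers together ranged from 1768 to 3397 in flight and from 1462 to 2910 on the ground, with NRT2.1 at most 0.137 in flight and 0.215 on the ground. That sum was mostly PYK10, with a median of 2132 in flight and 1899 on the ground (change 0.32), and RCI3 (0.48) and PIP2;4 (0.27) were higher in flight as well, but TIP2;3 was lower, with a median of 97.0 in flight and 338 on the ground (change -1.77, limma adjusted p = 5.87e-20). The 8 seed storage markers summed to at most 0.365 in flight and 9.82 on the ground. The part of shoot-to-root proportions in the results below was not tested, and fewer cells of a type and less RNA per cell cannot be told apart in whole seedlings.

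The stretches upstream of the annotated starts show which members carry the binding site of their own family. In the 300 bases before the start (RefSeq annotation, build TAIR10.1), the motifs searched were a heat shock element of 2 units (GAANNTTC or TTCNNGAA), found in 19.3% of 27443 gene starts, one of 3 units, in which a further unit follows at the same spacing, found in 0.485%, and the dehydration-responsive element bound by DREB2 factors (ACCGAC or GCCGAC), found in 8.24%, all on both strands. A 3-unit match contains 2-unit matches. HSFA2 and HSFA7A, the heat-induced members, had the 3-unit element, and HSFA4A and HSFB2A are shown with them as the members that were lowest in flight relative to ground. The sequences run 5′ to 3′ up to the start and cover its last 200 bases, or for HSFA2 the 158 bases free of the neighbouring gene, and capitals mark heat shock and dehydration-responsive elements.
HSFA2 (AT2G26150, chr2:11135466-11135623, plus strand): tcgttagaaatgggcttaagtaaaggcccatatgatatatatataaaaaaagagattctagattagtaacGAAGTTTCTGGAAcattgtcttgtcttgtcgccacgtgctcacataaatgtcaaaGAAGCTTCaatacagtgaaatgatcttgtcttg
HSFA7A (AT3G51910, chr3:19264941-19265140, plus strand): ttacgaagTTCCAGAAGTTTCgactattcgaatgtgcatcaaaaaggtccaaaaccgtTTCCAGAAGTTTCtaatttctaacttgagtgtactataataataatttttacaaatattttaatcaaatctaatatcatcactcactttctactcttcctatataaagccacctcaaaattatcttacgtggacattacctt
HSFA4A (AT4G18880, chr4:10349903-10350102, minus strand): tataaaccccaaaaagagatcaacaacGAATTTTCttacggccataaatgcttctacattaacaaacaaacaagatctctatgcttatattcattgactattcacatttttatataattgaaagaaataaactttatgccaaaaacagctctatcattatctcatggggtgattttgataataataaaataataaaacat
HSFB2A (AT5G62020, chr5:24915607-24915806, plus strand): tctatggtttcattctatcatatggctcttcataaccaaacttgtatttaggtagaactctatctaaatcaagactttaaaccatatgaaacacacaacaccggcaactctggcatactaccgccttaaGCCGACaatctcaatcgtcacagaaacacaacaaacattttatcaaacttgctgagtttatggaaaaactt
HSFA2 had 1 match of 3 units, whose last base lay 76 bases before the start, and a separate one of 2 units at 26 bases. HSFA7A had 2 matches of 3 units, at 180 and 130 bases. HSFA4A had 1 match of 2 units at 166 bases and HSFA1E 1 at 37 bases. A dehydration-responsive element was found before HSFB2A, at 66 bases, and before HSFA1A, at 115 bases, where the window overlaps the neighbouring gene AT4G17760. The window of HSFA3 held none of these letters, but only 33 of its bases were free of the neighbouring gene AT5G03730. HSFA1B, HSFA1D and HSFB1 had no match to these motifs either. The G-box CACGTG, in 7.09% of the windows, was present before HSFA1E and HSFA2, and TGACGTGG, a core bound by the bZIP factors of the unfolded protein response and present in 1.33%, before none of the 10.

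**Figure D1:**
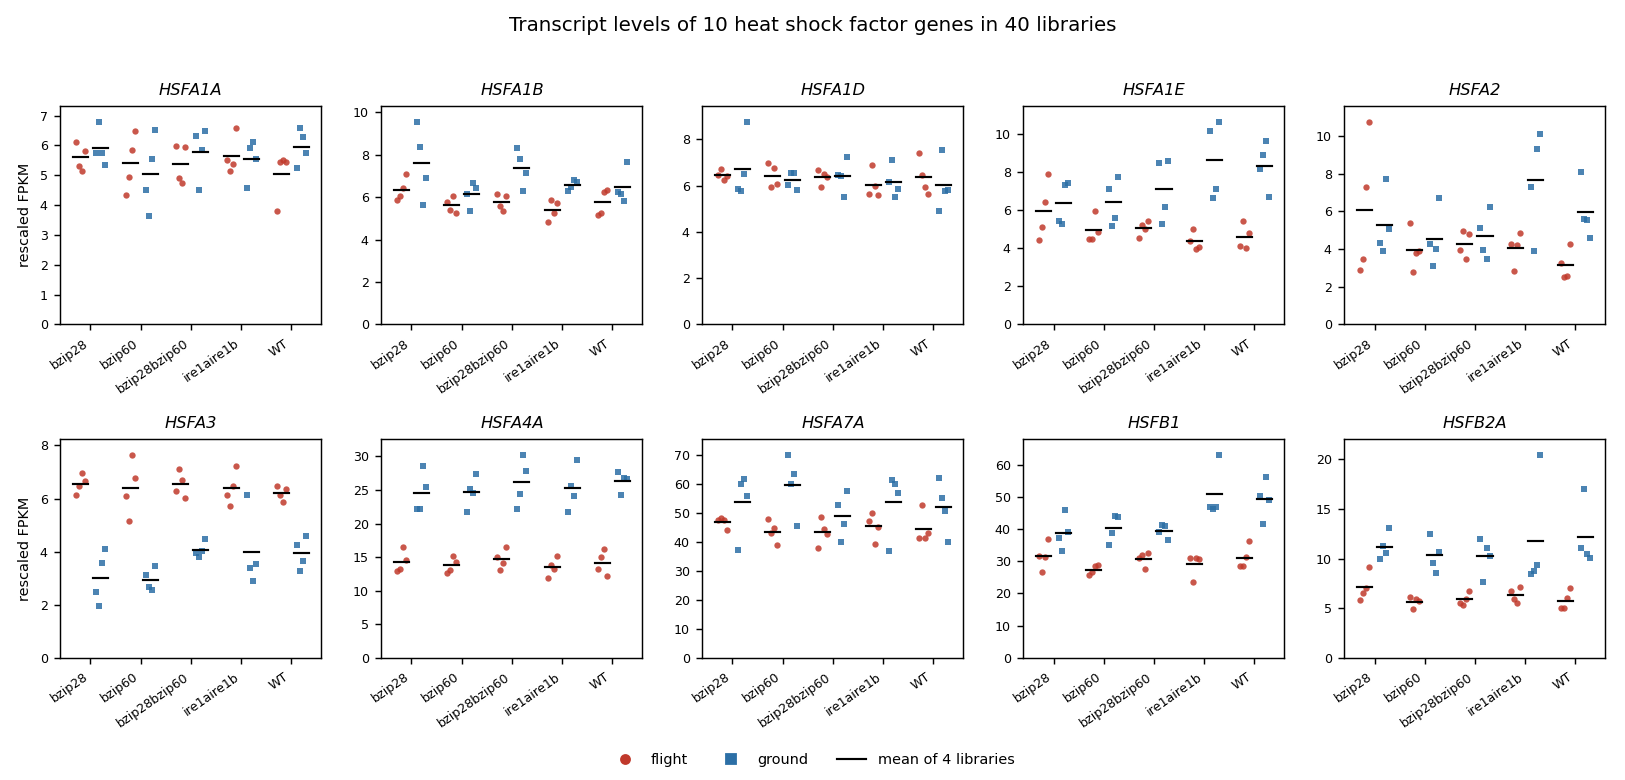
Rescaled FPKM (vertical axes, linear, from 0) of the 10 heat shock factor genes in each of 40 libraries, flight (circles) beside ground (squares) for each genotype, with the mean of 4 libraries as a black line. HSFA3 lies higher in flight, HSFA4A, HSFB1 and HSFB2A lie lower, and HSFA1D differs little.

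The 10 genes spanned a wide range of levels. HSFA7A had the highest group mean in all 10 groups, from 43.4 to 46.9 rescaled FPKM in the flight groups and from 49.0 to 59.6 in the ground groups. HSFB1 was second throughout, at 27.4 to 31.6 in flight groups and 38.9 to 50.8 in ground groups, and its libraries overlapped those of HSFA7A in 4 of the 5 ground groups. HSFA4A followed in every group, with no overlap with its neighbours in the order, at 13.5 to 14.7 in flight groups and 24.5 to 26.3 in ground groups. The other 7 lay between 2.95 and 12.1. Among these, neighbours in the order mostly overlapped, as in WT flight, where HSFA1D, HSFA3, HSFA1B, HSFB2A, HSFA1A, HSFA1E and HSFA2 followed each other from 6.35 down to 3.15 with each pair of neighbours overlapping. The place of HSFA3 differed between the conditions. It had rank 4 or 5 of the 10 in every flight group and rank 10 in every ground group.

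Together the 10 genes made up 74.6% to 78.3% of the summed FPKM of the 21 HSF genes in flight libraries and 75.0% to 82.6% in ground libraries. HSFA7A alone was at a median of 26.6% in flight and 25.2% on the ground, and HSFA3 at 3.79% in flight and 1.61% on the ground. These shares are formed within a library, so its scale factor cancels.

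HSFA3 was the member with more transcript in orbit on both scales. Over the 20 flight libraries it ranged from 5.15 to 7.62 rescaled FPKM with a median of 6.42, against 1.94 to 6.12 with a median of 3.56 over the 20 ground libraries. In WT it stood at 6.48, 6.14, 5.85 and 6.36 rescaled FPKM in WT flight libraries, against 4.24, 3.28, 3.65 and 4.58 in WT ground libraries. All 4 WT flight libraries were above the highest WT ground library. In the bzip60 mutant HSFA3 was at 6.10, 5.15, 7.62 and 6.77 rescaled FPKM in bzip60 flight libraries, against 3.12, 2.69, 2.55 and 3.45 in bzip60 ground libraries. In libraries labelled bzip28 it was at 6.14, 6.48, 6.95 and 6.66 rescaled FPKM in bzip28 flight libraries, against 2.47, 1.94, 3.56 and 4.11 in bzip28 ground libraries. The groups did not overlap in either mutant. The double mutant bzip28bzip60 had 6.29, 7.10, 6.70 and 6.04 rescaled FPKM in bzip28bzip60 flight libraries, against 3.96, 3.797, 4.02 and 4.47 in bzip28bzip60 ground libraries, again without overlap. In ire1aire1b HSFA3 was at 6.14, 5.72, 6.47 and 7.23 rescaled FPKM in ire1aire1b flight libraries, against 6.12, 3.40, 2.89 and 3.55 in ire1aire1b ground libraries, where 1 ground library, replicate 1, lay inside the flight range. That library had a log2 scale factor of -1.06, and its deposited value of 2.93 was close to the 1.96 to 2.85 of the other 3. As deposited, all 20 flight libraries, from 6.75 to 10.5 FPKM, were above all 20 ground libraries, from 0.982 to 4.98. The share of all tested genes separated in this way is not given here. On that scale 84.6% of them were called higher in flight as a mean of the genotypes (limma).

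HSFA3 rose by 0.72 ± 0.064 (as deposited 1.35) on the log2 scale in flight against ground as a mean of the 5 genotypes (SE, limma adjusted p = 2.72e-12 and 2.14e-17 as deposited), a 1.64-fold higher value of FPKM + 1. It rose in each genotype on both scales: by 0.94 (as deposited 1.70) in libraries labelled bzip28, 0.90 (1.16) in bzip60, 0.57 (1.18) in bzip28bzip60, 0.60 (1.40) in ire1aire1b and 0.55 (1.304) in WT, with an SE of 0.14 (0.18) each. Among all tested genes 24.2% were called higher in each genotype after rescaling, and 40.1% as deposited. Without replicate 1 of ire1aire1b ground the change in that genotype was 0.79. HSFA3 overlaps AT5G03710 on the opposite strand by 486 bases, and whether reads were assigned by strand is not given in the sources used here. AT5G03710 was listed at 0 in 12 of 20 flight and 16 of 20 ground libraries, with a highest rescaled value of 2.23 in flight and 7.85 on the ground.

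HSFA4A was lower in flight in every genotype after rescaling, and on the deposited scale it was lower past the test in bzip60 alone. It ranged from 11.8 to 16.5 rescaled FPKM with a median of 14.0 over 20 flight libraries, against 21.8 to 30.1 with a median of 25.2 over 20 ground libraries. Not 1 library of the 40 crossed between the conditions. The share of all tested genes for which this held is not given here. Within single genotypes 48.6% to 52.8% of all tested genes had no overlap after rescaling, and 16.1% were called lower in each genotype (limma). WT libraries had 13.25, 14.97, 16.24 and 12.15 rescaled FPKM in WT flight libraries, against 27.69, 24.30, 26.75 and 26.59 in WT ground libraries. In bzip60 it was at 12.65, 13.03, 15.17 and 14.29 rescaled FPKM in bzip60 flight libraries, against 21.78, 25.07, 24.61 and 27.33 in bzip60 ground libraries. Both pairs of groups were apart by more than their spread. It was at 12.88, 13.17, 16.46 and 14.62 rescaled FPKM in bzip28 flight libraries, against 22.22, 22.09, 28.51 and 25.36 in bzip28 ground libraries. The double mutant bzip28bzip60 had 15.03, 13.05, 14.20 and 16.55 rescaled FPKM in bzip28bzip60 flight libraries, against 22.17, 24.41, 30.14 and 27.75 in bzip28bzip60 ground libraries, and ire1aire1b had 11.83, 13.76, 13.23 and 15.18 rescaled FPKM in ire1aire1b flight libraries, against 21.75, 25.62, 24.04 and 29.51 in ire1aire1b ground libraries. HSFA4A thus spanned a similar range in the flight groups of all genotypes. The change after rescaling was -0.81 ± 0.047 (as deposited -0.059 ± 0.089) as a mean of the genotypes (SE, limma adjusted p = 3.44e-17 and 0.529 as deposited), or 0.572-fold in FPKM + 1. By genotype it lay between -0.86 and -0.74, with an SE of 0.10, and as deposited between -0.54 and 0.25, with an SE of 0.20. In bzip60, HSFA4A fell on both scales, by 0.80 (as deposited 0.54, limma adjusted p = 0.0232).

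HSFB2A, a class B factor that in Arabidopsis is known for a part in female gametophyte development, followed HSFA4A. It ranged from 4.91 to 9.17 rescaled FPKM with a median of 5.94 over the flight libraries, against 7.63 to 20.4 with a median of 10.5 over the ground libraries. WT stood at 4.98, 5.02, 6.02 and 6.99 rescaled FPKM in WT flight libraries, against 11.05, 17, 10.49 and 10.02 in WT ground libraries. Libraries labelled bzip28 had 5.87, 6.58, 7.03 and 9.17 rescaled FPKM in bzip28 flight libraries, against 9.93, 11.30, 10.53 and 13.04 in bzip28 ground libraries. In both, every flight library was below every ground library. The bzip60 mutant had 6.09, 4.91, 5.89 and 5.74 rescaled FPKM in bzip60 flight libraries, against 12.49, 9.55, 8.57 and 10.69 in bzip60 ground libraries. The double mutants were at 5.57, 5.31, 5.97 and 6.68 rescaled FPKM in bzip28bzip60 flight libraries, against 11.98, 7.63, 11.02 and 10.21 in bzip28bzip60 ground libraries, and at 6.70, 5.90, 5.57 and 7.14 rescaled FPKM in ire1aire1b flight libraries, against 8.43, 8.77, 9.35 and 20.38 in ire1aire1b ground libraries. Here too the groups were apart, and single ground libraries of WT and ire1aire1b stood well above their group. The change was -0.74 ± 0.081 (as deposited -0.042 ± 0.11) as a mean of the genotypes (SE, limma adjusted p = 4.41e-10 and 0.712 as deposited). It was called lower in each of the 5 genotypes after rescaling, by -0.94 to -0.59 with an SE of 0.18, and did not pass in any genotype as deposited (limma adjusted p = 0.0682 in bzip60, the lowest of the 5), where changes ran from -0.53 to 0.34. In ire1aire1b the change of -0.71 was -0.43 (limma adjusted p = 0.016) without ground replicate 4, the highest library. With a term for sequencing lane the call in bzip28bzip60 was lost (-0.45, limma adjusted p = 0.0856). Over all tested genes 16.1% were called lower in each genotype after rescaling and 1.18% as deposited.

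HSFB1, a class B repressor of heat-induced HSF genes, was lower after rescaling in each genotype as well, whereas it was higher on the deposited scale as a mean. It ranged from 23.59 to 36.8 rescaled FPKM with a median of 30.8 over the flight libraries, against 33.2 to 62.9 with a median of 42.7 over the ground libraries. In ire1aire1b it was at 31.15, 23.59, 31.05 and 30.71 rescaled FPKM in ire1aire1b flight libraries, against 46.95, 46.26, 46.96 and 62.88 in ire1aire1b ground libraries. In WT it was at 28.63, 28.43, 31.20 and 36.41 rescaled FPKM in WT flight libraries, against 50.22, 41.57, 56.28 and 48.89 in WT ground libraries. Both genotypes had all flight libraries below all ground libraries. The smallest difference was in libraries labelled bzip28, with 31.72, 26.59, 31.21 and 36.78 rescaled FPKM in bzip28 flight libraries, against 37.26, 33.22, 45.89 and 39.04 in bzip28 ground libraries, where the groups overlapped. The change was -0.52 ± 0.050 (as deposited 0.25 ± 0.089) as a mean of the genotypes (SE, limma adjusted p = 1.49e-11 and 0.00987 as deposited). By genotype it was -0.29 (as deposited 0.73) in libraries labelled bzip28, -0.54 (-0.27) in bzip60, -0.35 (0.36) in bzip28bzip60, -0.78 (0.17) in ire1aire1b and -0.64 (0.26) in WT. The bzip28 value lost its call with summed nuclear FPKM made equal (-0.19), with a term for sequencing lane (-0.16), in a fit of the 2 bzip28 groups alone (-0.29) and without flight replicate 2 or ground replicate 3 (-0.21 each). The bzip28bzip60 value also lost its call with the lane term (-0.11, limma adjusted p = 0.458).

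HSFA7A and HSFA2 are both induced by heat through class A1 factors, and both carried the 3-unit element. HSFA7A, the member with the highest level, ranged from 37.9 to 52.5 rescaled FPKM with a median of 44.5 over the flight libraries, against 36.9 to 69.8 with a median of 56.3 over the ground libraries, a wide overlap. Its change was -0.24 ± 0.068 (as deposited 0.54 ± 0.12) as a mean of the genotypes, opposite in sign and called on both scales (SE, limma adjusted p = 0.00217 and 0.000148 as deposited). Within genotypes it passed after rescaling in bzip60 alone, at -0.43 (as deposited -0.16), where it was at 47.69, 43.07, 44.59 and 38.75 rescaled FPKM in bzip60 flight libraries, against 69.77, 59.96, 63.31 and 45.52 in bzip60 ground libraries. That call was lost without flight replicate 4 (-0.38) or ground replicate 1 (-0.35), and with a term for sequencing lane (-0.43, limma adjusted p = 0.0559). The lowest ground values of the libraries labelled bzip28 and of ire1aire1b, 37.2 and 36.9, were in the 2 ground libraries with a log2 scale factor below -1. Without both, its change was -0.33 in bzip28 and -0.38 in ire1aire1b, past the test (limma adjusted p = 0.0294 and 0.012), and -0.30 as a mean. With 1 left out alone, the bzip28 change did not pass (limma adjusted p = 0.0595) and that in ire1aire1b did (limma adjusted p = 0.0276).

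HSFA2 had the most uneven pattern. It ranged from 2.52 to 10.7 rescaled FPKM with a median of 3.93 over the flight libraries, against 3.09 to 10.11 with a median of 5.09 over the ground libraries. In WT it was at 3.26, 2.52, 2.56 and 4.27 rescaled FPKM in WT flight libraries, against 8.10, 5.61, 5.54 and 4.57 in WT ground libraries, without overlap. In ire1aire1b it was at 4.26, 2.83, 4.24 and 4.82 rescaled FPKM in ire1aire1b flight libraries, against 7.26, 3.92, 9.31 and 10.11 in ire1aire1b ground libraries, with 1 ground library inside the flight range. In libraries labelled bzip28 it was at 2.88, 3.46, 7.30 and 10.74 rescaled FPKM in bzip28 flight libraries, against 4.34, 3.88, 7.74 and 5.05 in bzip28 ground libraries, and flight and ground overlapped. Of the 4 flight libraries labelled bzip28, 2 were higher than every other flight library of the series. The change of HSFA2 was -0.74 (as deposited 0.0028) in WT and -0.73 (0.085) in ire1aire1b, both past the test after rescaling alone, and 0.073 (0.90) in libraries labelled bzip28, -0.13 (0.092) in bzip60 and -0.094 (0.49) in bzip28bzip60, with an SE of 0.27 (0.30) each. As a mean it was -0.33 ± 0.12 (as deposited 0.31 ± 0.14), called in opposite directions on the 2 scales (SE, limma adjusted p = 0.0148 and 0.0303 as deposited). A term for sequencing lane brought the mean to -0.046 (limma adjusted p = 0.822) and the WT change to -0.34 (limma adjusted p = 0.353). The WT change also lost its call without WT ground replicate 1 or WT flight replicate 2 (-0.60 and -0.67). In ire1aire1b the call was lost without flight replicate 2 (-0.60), ground replicate 3 (-0.62) or ground replicate 4 (-0.59). It was lost there with the lane term as well (-0.62, limma adjusted p = 0.0561).

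**Figure D2:**
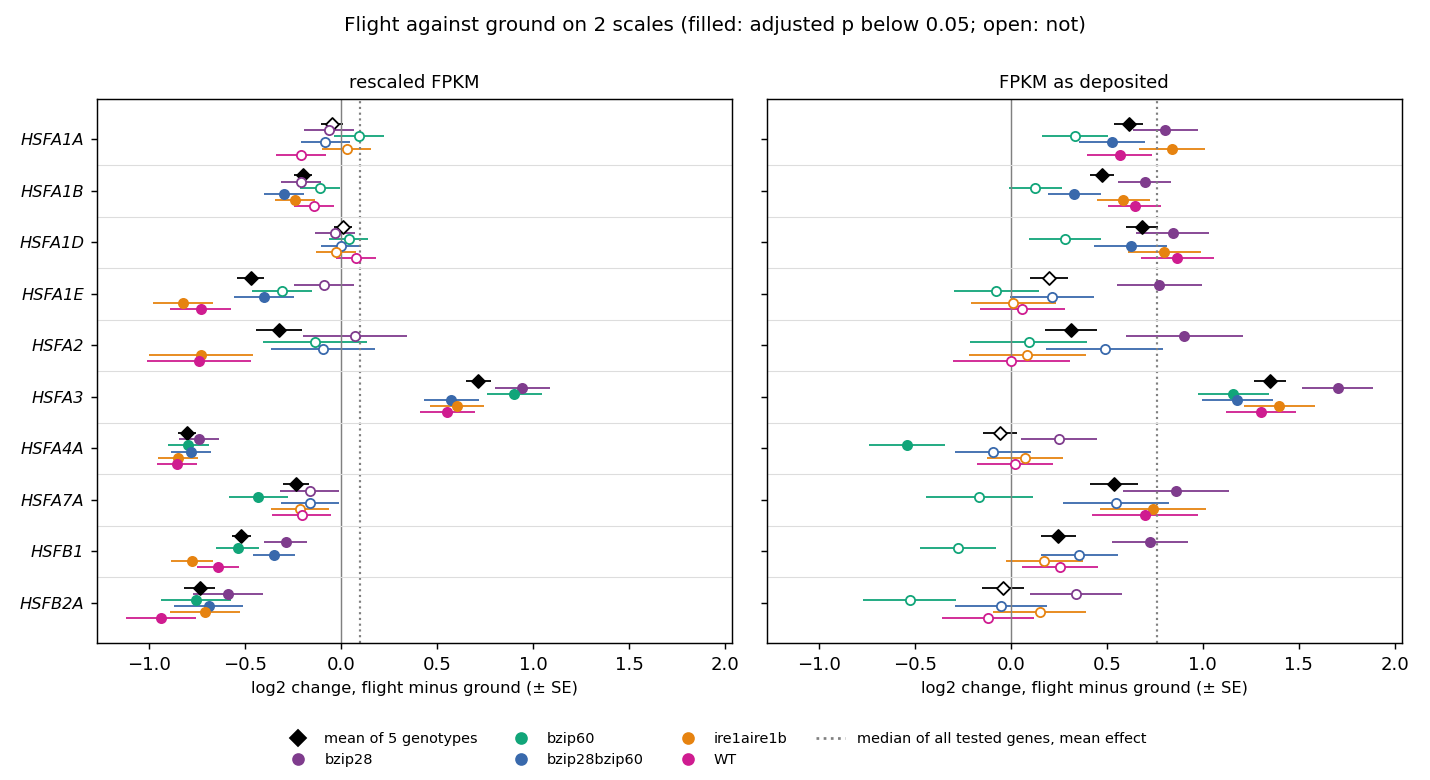
Log2 change in flight minus ground with its SE (horizontal axes) for the 10 genes, on rescaled FPKM (left) and on FPKM as deposited (right). Diamonds are the mean of 5 genotypes and circles single genotypes, filled where the adjusted p is below 0.05, and the dotted line is the median of all tested genes, at 0.097 and 0.76. HSFA3 is right of 0 for every genotype on both sides, while HSFA4A, HSFB1 and HSFB2A are left of 0 for every genotype when rescaled.

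The class A1 genes, which encode the factors that start the heat response, changed less, with 1 exception. HSFA1A ranged from 3.81 to 6.58 rescaled FPKM in flight libraries and from 3.65 to 6.79 in ground libraries, and HSFA1D from 5.58 to 7.39 in flight and from 4.92 to 8.75 on the ground. Neither passed the test after rescaling as a mean, at -0.047 ± 0.057 (as deposited 0.61) and 0.011 ± 0.046 (0.68), or in any genotype (SE, limma adjusted p of 0.16 or more). As deposited both were called higher, where the median of all tested genes was 0.76. HSFA1B ranged from 4.84 to 7.10 in flight libraries, against 5.37 to 9.54 in ground libraries, with a mean change of -0.20 ± 0.046 (as deposited 0.48), called in opposite directions on the 2 scales (SE, limma adjusted p = 0.000194 and 7.98e-09 as deposited). It shares 44 bases with SYP21 on the opposite strand, which was at 19.3 to 26.1 rescaled FPKM in flight and 12.4 to 23.1 on the ground.

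HSFA1E was the exception within class A1. It ranged from 3.95 to 7.90 rescaled FPKM with a median of 4.84 over the flight libraries, against 5.17 to 10.6 with a median of 7.22 over the ground libraries. In ire1aire1b it was at 4.39, 4.98, 3.95 and 4.08 rescaled FPKM in ire1aire1b flight libraries, against 10.14, 6.61, 7.13 and 10.62 in ire1aire1b ground libraries. In WT it was at 4.14, 5.43, 4.02 and 4.81 rescaled FPKM in WT flight libraries, against 8.14, 8.88, 9.62 and 6.67 in WT ground libraries. No flight library reached a ground library in these 2 genotypes. Libraries labelled bzip28 had 4.44, 5.10, 6.42 and 7.90 rescaled FPKM in bzip28 flight libraries, against 5.45, 5.24, 7.31 and 7.43 in bzip28 ground libraries, where the highest value was a flight library. The mean change of HSFA1E was -0.47 ± 0.070 (as deposited 0.20 ± 0.099) (SE, limma adjusted p = 2.54e-07 and 0.0598 as deposited). By genotype it was -0.091 (as deposited 0.77) in libraries labelled bzip28, -0.31 (-0.077) in bzip60, -0.40 (0.21) in bzip28bzip60, -0.83 (0.012) in ire1aire1b and -0.73 (0.06) in WT, with an SE of 0.16 (0.22). The call in bzip28bzip60 was lost in 4 of its 8 fits without 1 library, and with a term for sequencing lane (-0.30, limma adjusted p = 0.229).

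Counted over the 10 genes, 1 was called higher and 7 lower in flight as a mean after rescaling, where 46.8% of all tested genes were called higher and 33.3% lower. As deposited 7 were higher and 0 lower, where 84.6% were higher and 5.57% lower. HSFA3 was the single member called in the same direction on both scales. Of all tested genes 46.8% were called higher on both scales and 5.57% lower on both. The 8974 genes called higher after rescaling were all called higher as deposited too, so a rise after rescaling always came with this agreement. Another 4 members (HSFA1B, HSFA2, HSFA7A and HSFB1) were called lower after rescaling and higher as deposited, as were 19.4% of all tested genes. The median of the 10 was -0.28 (as deposited 0.40), below the 0.097 (0.76) of all tested genes. In WT 1 was higher and 5 lower after rescaling, where 35.5% and 24.9% of all genes were, and 5 and 0 as deposited. For the bzip28 label, 1 was higher and 3 lower after rescaling, where 35.1% and 24.2% were, and 8 and 0 as deposited. In bzip60 it was 1 and 4, where 33.2% and 22.8% were, and 1 and 1 as deposited. In bzip28bzip60 it was 1 and 5, where 32.6% and 22.5% were, and 4 and 0 as deposited. In ire1aire1b it was 1 and 6, where 34.2% and 23.9% were, and 5 and 0 as deposited. Shares of all tested genes called as deposited, higher and lower, were 82.2% and 1.88% in libraries labelled bzip28, 40.6% and 7.97% in bzip60, 71.2% and 2.64% in bzip28bzip60, 80.6% and 2.17% in ire1aire1b and 77.8% and 3.09% in WT. The share of all tested genes whose flight and ground libraries did not overlap after rescaling was 49.9% in libraries labelled bzip28, 49.8% in bzip60, 52.2% in the double bZIP mutant, 48.6% in ire1aire1b and 52.8% in WT, and of the 10 members it was 3, 4, 5, 5 and 6 in that order of genotypes.

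Sequencing lane was unevenly spread over the conditions, 11 flight libraries being alone in lane 1 and 9 ground libraries in lane 3. Within lane 4, which held both conditions of WT, ire1aire1b and libraries labelled bzip28, the changes were 0.77 for HSFA3, -0.88 for HSFA4A, -0.58 for HSFB2A, -0.45 for HSFB1, -0.66 for HSFA1E and -0.51 for HSFA2, each past the test. HSFA1B at -0.25 and HSFA7A at -0.11 were not. Within lane 2, with 1 flight and 2 ground libraries of bzip60, HSFA3 was at 1.00 (limma adjusted p = 0.0142), HSFA4A at -0.67 (0.0261) and HSFA7A at -0.72 (0.04), and the other 7 did not pass. In that fit the lone flight library is assumed to vary like the other groups in the lane, and in lane 4 the same holds for the single WT libraries and the single flight library labelled bzip28. With lane as a term in the model over all libraries the mean changes kept their calls for HSFA3 (0.84), HSFA4A (-0.73), HSFB2A (-0.62), HSFB1 (-0.33), HSFA1E (-0.42), HSFA1B (-0.23) and HSFA7A (-0.24), and HSFA2 lost its call (-0.046).

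Ratios within a library depend on its scale through the added 1 FPKM alone, and show unequal change of 2 quantities without telling which of them changed. Each of the 6 other members was set against the mean log2 value of the 4 class A1 genes. The log2 ratio of HSFA3 was 0.10 ± 0.087 in flight and -0.94 ± 0.34 on the ground in libraries labelled bzip28, 0.17 ± 0.12 and -0.81 ± 0.13 in bzip60, 0.18 ± 0.15 and -0.59 ± 0.12 in bzip28bzip60, 0.22 ± 0.15 and -0.65 ± 0.38 in ire1aire1b, and 0.18 ± 0.10 and -0.63 ± 0.26 in WT, flight before ground in each (SD, n = 4). The ratio of HSFA3 thus differed by 0.77 to 1.04 between flight and ground, with no overlap in any of the 5 genotypes. It differed by 0.76 to 0.99 as deposited and by 0.90 to 1.26 with 0.1 added in place of 1. The ratio of HSFA4A differed by -0.72 to -0.59 (as deposited -0.71 to -0.49), also with no overlap in any genotype, as for WT with 1.24 ± 0.18 in flight and 1.85 ± 0.17 on the ground (SD, n = 4 each). That of HSFB2A was lower in 5 of 5 genotypes, by -0.69 to -0.44, with no overlap in 4, and that of HSFB1 in 5 of 5, by -0.51 to -0.15, with no overlap in 2. HSFA2, from -0.49 to 0.17, and HSFA7A, from -0.36 to 0.051, overlapped in all 5, and that of HSFA7A in libraries labelled bzip28 was of opposite sign on the 2 scales (-0.066, as deposited 0.079). By a two-sided exact permutation test within each genotype, 0 of 30 ratios had an adjusted p below 0.05. Comparing 4 against 4 libraries allows no p under 0.0286. The 16 comparisons without overlap had that p, or 0.0536 after adjustment over the 30. The share of all tested genes whose ratio to the class A1 mean had no overlap is not given here. For rescaled FPKM itself that share was 48.6% to 52.8% by genotype, so a lack of overlap was common.

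**Figure D3:**
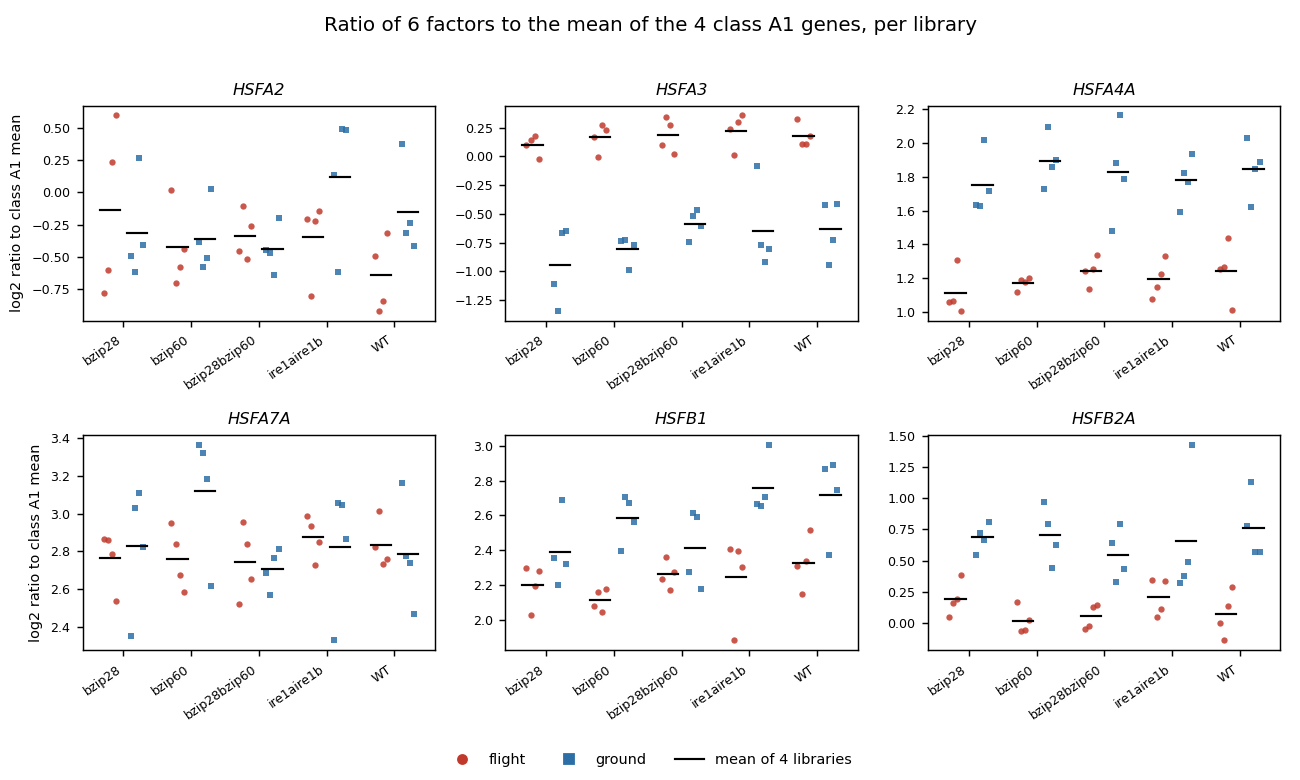
Log2 ratio of HSFA2, HSFA3, HSFA4A, HSFA7A, HSFB1 and HSFB2A to the mean of the class A1 genes (vertical axes) in each library, flight (circles) beside ground (squares) by genotype, with the mean of 4 libraries as a black line. The flight ratios of HSFA3 lie above and those of HSFA4A below the ground ratios in all 5 genotypes.

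Within class A1 the make-up was compared in the same way, as shares of the summed FPKM of the 4 genes. HSFA1E made up 20.3% ± 1.62 in flight and 31.9% ± 6.18 on the ground in ire1aire1b, and 21.1% ± 2.34 in flight and 31.1% ± 4.03 on the ground in WT (SD, n = 4 each). Both differences, -11.6 and -10.0 percentage points, were without overlap. In libraries labelled bzip28 the share was 24.2% ± 4.30 in flight and 23.9% ± 4.40 on the ground (SD, n = 4 each), a difference of 0.309 points, which was between -1.28 and -0.439 in 4 of its 8 versions without 1 library. HSFA1D had a higher share in flight in 5 of 5 genotypes, by 1.47 to 6.997 points, and HSFA1A by 0.783 to 5.77 points. The lowest difference of HSFA1A, in libraries labelled bzip28, became -0.441 without flight replicate 1 and -0.386 without ground replicate 4. The difference for HSFA1B ran from -2.57 to 2.13 points. Of 20 two-sided exact permutation tests 0 had an adjusted p below 0.05, the lowest being 0.19, and 3 comparisons were without overlap.

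**Figure D4:**
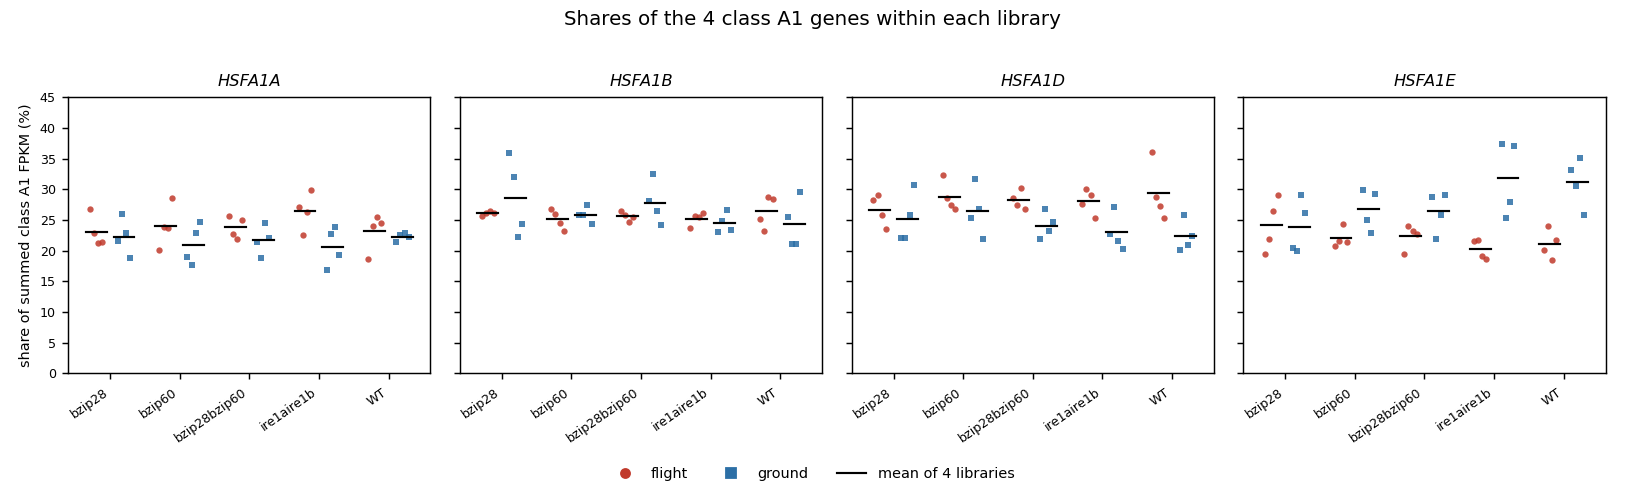
Share of each class A1 gene in their summed FPKM (vertical axis, percent, from 0) in each library, flight (circles) beside ground (squares) by genotype, with the mean of 4 libraries as a black line. The share of HSFA1E in flight lies below that on the ground in ire1aire1b and WT and about level with it in libraries labelled bzip28.

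The mutants were also set against WT within each condition. Against WT on the ground, 0 of the 10 were called after rescaling in any of the 4 mutants (limma), where 3.34% of all tested genes were called in libraries labelled bzip28, 4.62% in bzip60, 2.35% in the bzip28bzip60 double mutant and 0.485% in ire1aire1b. At an unadjusted p below 0.05 there were 3 in libraries labelled bzip28, 3 in bzip60, 1 in the bzip28bzip60 double mutant and 0 in ire1aire1b. Shares of all tested genes at that unadjusted p are not given, here or in the next paragraph. The shares printed hold for the adjusted p alone and cannot be set against the unadjusted counts. The lowest adjusted p was that of HSFB1 in libraries labelled bzip28, 38.9 ± 5.29 rescaled FPKM against 49.2 ± 6.04 in WT ground libraries (SD, n = 4 each), a difference of -0.34 ± 0.11 (as deposited -0.53, SE, limma adjusted p = 0.0876 and 0.297 as deposited). That difference passed the test without WT ground replicate 2 (-0.41) and without bzip28 ground replicate 3 (-0.42), and with a term for lane (-0.37). As deposited, 4 members were called higher in bzip60 than in WT on the ground, HSFA1B at 0.48 (rescaled -0.058), HSFA1D at 0.60 (0.057), HSFA4A at 0.52 (-0.092) and HSFA7A at 0.82 (0.20), where 69.8% of all tested genes were called higher and log2 scale factors were -0.035 to 0.32 in bzip60 ground libraries, against -0.75 to -0.37 in WT ground libraries. All 4 comparisons used the same WT libraries and are not independent.

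In flight, 0 of the 10 differed from WT in any mutant after rescaling (limma), where 0.182% of all tested genes were called in libraries labelled bzip28, 0.250% in bzip60, 0.318% in the bzip28bzip60 double mutant and 0.235% in ire1aire1b. The single member with an unadjusted p below 0.05 was HSFA2 in libraries labelled bzip28, at 0.65 ± 0.27 (as deposited 0.60, SE, limma adjusted p = 1 on both scales), which ran from 0.35 without bzip28 flight replicate 4 to 0.89 without bzip28 flight replicate 1. The flight responses of the mutants minus that of WT gave 0 members as well (limma), where 0.0469% of all tested genes were called for libraries labelled bzip28, 0.0469% for bzip60, 0.0834% for the bzip28bzip60 double mutant and 0.00521% for ire1aire1b. At an unadjusted p below 0.05 there were 3, all in libraries labelled bzip28: HSFA1E at 0.64 ± 0.22 (as deposited 0.71), HSFA2 at 0.81 ± 0.38 (as deposited 0.90) and HSFB1 at 0.35 ± 0.16 (as deposited 0.47) (SE, limma adjusted p of 0.422 or more). So the calls of HSFA2 and HSFA1E in WT and ire1aire1b and their absence in libraries labelled bzip28 were not shown to be a difference between genotypes. For HSFA3 the response of the mutants was 0.020 to 0.39 higher than that of WT (as deposited -0.14 to 0.40), with 0 called.

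The other genes of the pathway came from 3 lists of known members. Of 11 further HSF genes 8 passed the filter on low values, and HSFA6A, HSFA7B and HSFA9 did not. Of these 8, 4 were called higher and 4 lower in flight as a mean after rescaling, where 46.8% and 33.3% of all genes were. As deposited it was 6 and 0, where 84.6% and 5.57% of all tested genes were. The median of the 8 was -0.11 (as deposited 0.56), beside 0.097 (0.76) over all tested genes. HSFB4, known as SCHIZORIZA for its part in root stem cell divisions, rose by 1.23 (as deposited 1.75). It was at 4.25 ± 0.268 rescaled FPKM in WT flight, against 0.751 ± 0.445 in WT ground libraries (SD, n = 4 each). HSFB3, HSFA5 and HSFA4C, the second class A4 gene, rose by 0.46 (as deposited 0.83), 0.27 (0.93) and 0.18 (0.86). The mean changes of the 2 class A4 genes were therefore of opposite sign after rescaling. That of HSFA4C was small, 0.18 ± 0.053 (SE, limma adjusted p = 0.00322), beside the 0.097 of all tested genes. By genotype HSFA4C lay between 0.092 and 0.25 after rescaling and was not called in any. HSFB3 had a low level, with a median of 1.32 rescaled FPKM in flight and 0.73 on the ground. After rescaling HSFB3 was called in bzip60 alone, and HSFA5 in each genotype but bzip60.

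The second list held 17 genes that act upstream of HSFs or bind them, all of which passed the filter. After rescaling 8 were called higher and 9 lower in flight as a mean, where 46.8% and 33.3% of all tested genes were. As deposited it was 11 and 2, where 84.6% and 5.57% of all tested genes were. The median of the 17 was -0.16 (as deposited 0.62), beside 0.097 (0.76) over all tested genes. DREB2A, which activates HSFA3 in Arabidopsis, fell by 1.37 (as deposited 0.59) on the log2 scale, and DREB2B by 0.95 (0.40). DREB2A was at 32.3 ± 12.1 rescaled FPKM in WT flight, against 124 ± 35.01 in WT ground libraries (SD, n = 4 each), in the opposite direction to HSFA3. In libraries labelled bzip28, DREB2A was at -0.68 (as deposited 0.35), called on neither scale (limma adjusted p = 0.111 and 0.416 as deposited). In the other genotypes DREB2A was called lower after rescaling, and as deposited in all of these but bzip28bzip60 (-0.39). HSBP, which binds HSFs and ends their activity, rose by 1.16 (as deposited 1.93), with 58.9 ± 10.4 in WT flight, against 22.0 ± 1.95 in WT ground libraries (SD, n = 4 each). ROF2, an immunophilin that acts on HSFA2, rose by 0.80 (as deposited 1.33). NF-YC10, NF-YB3 and NF-YA2, whose products act with DREB2A on HSFA3, were at 0.18 (as deposited 0.89), 0.30 (1.03) and -0.78 (-0.045). The kinase genes MPK3 and MPK6, whose products phosphorylate HSFA4A, were at -0.18 (as deposited 0.60) and -0.32 (0.46), so their direction turned with the scale.

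The last list held 20 genes known as targets of HSFs, of which 16 passed the filter. After rescaling 3 were called higher and 7 lower in flight as a mean, where 46.8% and 33.3% of all tested genes were. As deposited it was 10 and 1, where 84.6% and 5.57% of all tested genes were. The median of the 16 was -0.092 (as deposited 0.44), beside 0.097 (0.76) over all tested genes. GOLS1, a galactinol synthase gene, fell by 1.54 (as deposited 0.77). It was at 31.96 ± 1.86 rescaled FPKM in WT flight, against 91.2 ± 3.74 in WT ground libraries (SD, n = 4 each). HSP22.0, a small heat shock protein of the endoplasmic reticulum, rose by 0.92 (as deposited 1.21). Its level was low, 1.04 ± 0.336 in WT flight, against 0.133 ± 0.0618 in WT ground libraries (SD, n = 4 each). BAG6 rose by 0.37 (as deposited 0.95) and CLPB3, a chaperone gene of plastids, by 0.20 (0.90). After rescaling CLPB3 was called in bzip60 and libraries labelled bzip28 alone. BAG6 was called in each genotype but WT (0.15, as deposited 0.85). HSP22.0 was called in each but the libraries labelled bzip28 (0.52, as deposited 0.79). HSP101, the disaggregase of heat tolerance, was not called after rescaling, at 0.17 ± 0.096 (as deposited 0.86), and HSP70 was at -0.73 (0.049). HSP21 had a median of 0 in both conditions.

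**Figure D5:**
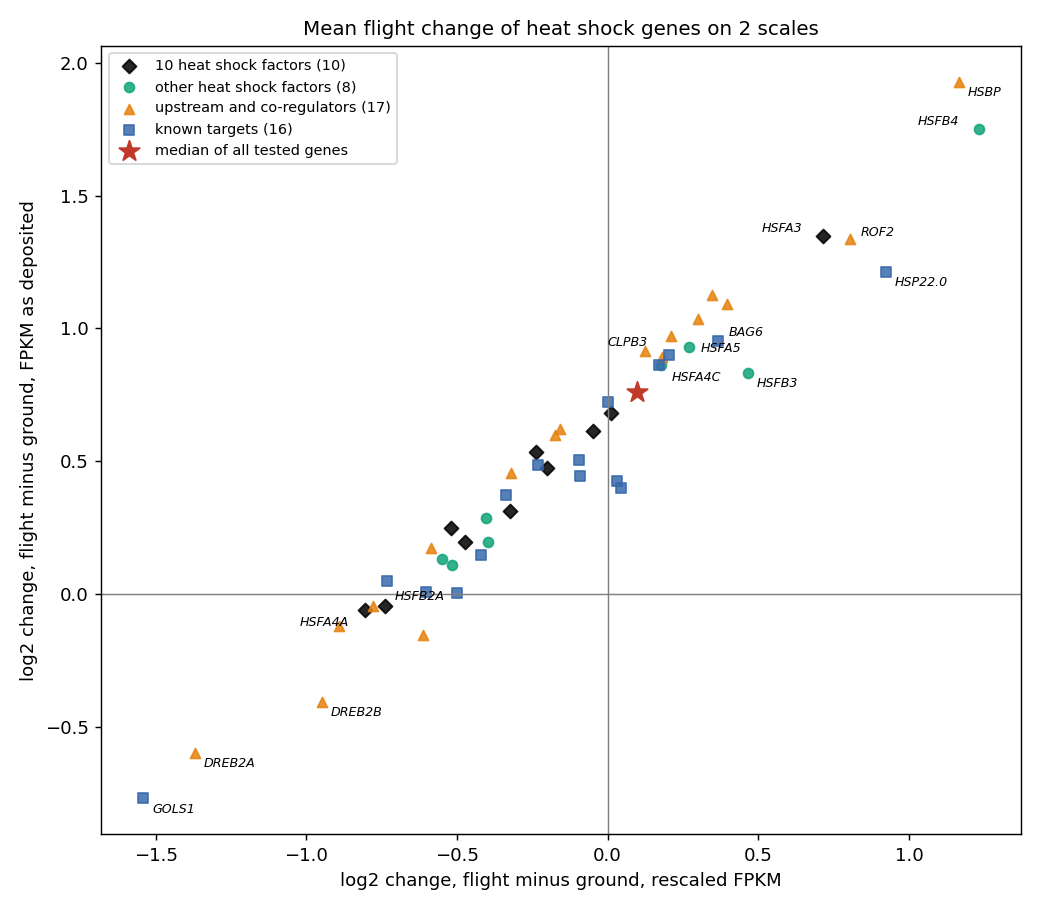
Mean log2 change in flight minus ground on rescaled FPKM (horizontal axis) and on FPKM as deposited (vertical axis) for the 10 heat shock factors and the tested genes of the 3 lists, with the median of all tested genes as a star. GOLS1, DREB2A and DREB2B are below 0 on both axes, HSFA3, ROF2, HSP22.0, HSFB4 and HSBP lie upper right, and 6 of the 10 factors lie upper left, lower when rescaled and higher as deposited.

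The genes most alike to each member in pattern were found by Pearson correlation over the 10 group means, given as a description. The points share the scale factors and the split between flight and ground. For HSFA3 these were AT5G24810, annotated as an ABC1 family protein, PLDGAMMA2, a phospholipase D, and BGAL9, a beta-galactosidase (r = 0.994, 0.992 and 0.991), among 3985 genes with r above 0.9. HSFA4A was most like AT5G24430, annotated as a calcium-dependent protein kinase, CAD1 and SPHK2 (r = 0.998, 0.997 and 0.997), among 3764. HSFB2A was most like AT5G04760, pEARLI4 and CEJ1 (r = 0.994 each), among 3677, and HSFB1 like AT4G20830, ALPHA-VPE and AT1G76070 (r = 0.993, 0.990 and 0.988), among 1887. HSFA1E was most like WTF1, AT3G09440, annotated as an Hsp70 family protein, and MSL3 (r = 0.993, 0.991 and 0.982), among 616. The nearest genes to HSFA7A were GH3.17, AT4G30240 and GLIP3 (r = 0.971, 0.967 and 0.965), among 293. Fewer genes were close to the remaining members: for HSFA1B SAMTL, ATMG01350 and AT3G27980 (r = 0.957, 0.956 and 0.955), for HSFA1A AT2G42330, AT3G53403 and AT4G39110 (r = 0.938, 0.935 and 0.929), for HSFA2 AT2G07703, AGP1 and ATA20 (r = 0.938, 0.930 and 0.925), and for HSFA1D AT5G65609, AT5G26760 and EC1.4 (r = 0.925, 0.914 and 0.893). Among the 10 themselves the closest pair was HSFA4A and HSFB2A (r = 0.968), followed by HSFA1E and HSFB1 (r = 0.949).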

How the data were processed

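RNA of 40 libraries was sequenced from a stranded mRNA kit (4 further samples, used for initial quality control, were not analysed here). The authors deposited 1 table of FPKM per locus, made with FastQC 0.11.5, cutadapt 1.8.1, Bowtie2 2.2.4, TopHat2 2.0.14 and Cufflinks 1.3.0 on TAIR10, per the submitters' processing notes; the strand setting is not given in the sources used here. Low values gave no whole-read steps, so the depth in reads is unknown. From the deposited FPKM a scale factor per library was computed as the median ratio over 14104 loci above 1 FPKM in every library. log2(FPKM + 1) was modelled by limma 3.58.1 under R 4.3.3 (10 groups, 30 residual degrees of freedom, eBayes with trend) on 19186 loci with a mean FPKM of at least 1, which all 10 members passed, with Benjamini-Hochberg adjustment over those loci in each of 18 comparisons. Fold changes on this scale understate the change of low genes. Shares and ratios within a library used two-sided exact permutation tests (scipy 1.17.1). The fit was run on simulated data with few changed genes and no lane effect. That run does not cover changes in many genes or the uneven spread over lanes.

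The members and lists were chosen with earlier results of these data known. Of each list the text names up to 4 genes, those with the largest mean change among those called in the same direction on both scales, and for each member the 3 genes with the highest correlation. NF-YC10, NF-YB3, NF-YA2, MPK3, MPK6, HSP101, HSP70 and HSP21 were named for their known roles after their values were seen. Replicate numbers did not pair the libraries, nor did the letter-and-digit code that 18 flight libraries share with a ground library of their genotype in the sample titles. The seedlings grew in 4 canisters, but the labels do not tie the title letters A to D to them. Sequences and annotation came from RefSeq TAIR10.1, and no coordinates come from the deposited table. Alternatives were the deposited scale, an equal sum over nuclear genes, another pseudocount and filter, a replicate block, a lane term, no trend, only the 2 groups compared and each library left out. Within-lane fits, leaving out libraries with a log2 scale factor below -1, and terms for the title letter or code were chosen after seeing the data.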

Additional observations from a re-analysis of the deposited data

Results flagged for a closer look

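Of 100 groups of 4 libraries, 1 for each gene in each genotype and condition, 7 held a library far from the other 3 by Dixon's criterion, where chance gives about 1 in 20. The lowest HSFA1A value of WT flight, 3.81 rescaled FPKM, stood apart from 5.44, 5.45 and 5.52 in the other libraries. The highest HSFA7A value of WT flight, 52.54 rescaled FPKM, stood apart from 41.27, 41.29 and 43.14 in the other libraries. The lowest HSFA7A value of bzip28 flight, 44.18 rescaled FPKM, stood apart from 47.61, 47.62 and 48.15 in the other libraries. The lowest HSFB1 value of ire1aire1b flight, 23.59 rescaled FPKM, stood apart from 30.71, 31.05 and 31.15 in the other libraries. The highest HSFB1 value of ire1aire1b ground, 62.88 rescaled FPKM, stood apart from 46.26, 46.95 and 46.96 in the other libraries. The highest HSFB2A value of WT ground, 17 rescaled FPKM, stood apart from 10.02, 10.49 and 11.05 in the other libraries. The highest HSFB2A value of ire1aire1b ground, 20.38 rescaled FPKM, stood apart from 8.43, 8.77 and 9.35 in the other libraries. Replicate 4 of ire1aire1b ground held the high value of both HSFB1 and HSFB2A. Without it HSFB1 was called lower in flight in ire1aire1b at -0.67 (limma adjusted p = 5.68e-06) and HSFB2A at -0.43 (limma adjusted p = 0.016), against -0.71 with it.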

How the results depend on the processing

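The scale was the choice that moved most. As deposited, 74 of 180 changes had the opposite sign, of which 38 were called on neither scale and the following 36 on at least 1. As a mean of the genotypes HSFA1A 0.61, HSFA1B 0.48, HSFA1E 0.20, HSFA2 0.31, HSFA7A 0.54 and HSFB1 0.25. In libraries labelled bzip28 HSFA1A 0.81, HSFA1B 0.70, HSFA1D 0.84, HSFA1E 0.77, HSFA4A 0.25, HSFA7A 0.86, HSFB1 0.73 and HSFB2A 0.34. In bzip28bzip60 HSFA1A 0.53, HSFA1B 0.33, HSFA1D 0.62, HSFA1E 0.21 and HSFB1 0.36. In ire1aire1b HSFA1B 0.59, HSFA1D 0.80, HSFA1E 0.012, HSFA2 0.085, HSFA4A 0.073, HSFA7A 0.74, HSFB1 0.17 and HSFB2A 0.15. In WT HSFA1A 0.57, HSFA1B 0.64, HSFA1E 0.060, HSFA2 0.0028, HSFA4A 0.019, HSFA7A 0.70 and HSFB1 0.26. For bzip60 against WT on the ground HSFA1B 0.48 and HSFA4A 0.52. The number of members called in flight against ground was then 8 in libraries labelled bzip28 and 2 in bzip60, and 4 for bzip60 against WT on the ground. With a lane term it was 3 in bzip28bzip60. Within lane 2, where 1 lone flight library of bzip60 is assumed to vary like the other groups, HSFA2 was at 0.081. Shares of all tested genes called with a lane term or without 1 library are not given here. A change in these counts thus cannot be told from a general loss or gain of calls. In libraries labelled bzip28 against WT on the ground 1 member, HSFB1, was called lower with the replicate block (-0.34, limma adjusted p = 0.0372) and with a lane term (-0.37, limma adjusted p = 0.0274), and with a title letter term (-0.32, limma adjusted p = 0.0329). The block changed no other call. Same-numbered libraries correlated at -0.11 to 0.17, with 3 of 20 pairs above 0.1, and 6 flight libraries were closest to their own number. Libraries sharing a title code correlated at -0.11 to 0.17 too, with 3 of 18 pairs above 0.1. A term for that code lost 2 calls, HSFA1E in bzip28bzip60 (-0.34) and HSFA1B in ire1aire1b (-0.24). Without 1 library the count was 8 as a mean in all 40 fits, 3 to 5 in libraries labelled bzip28, 4 to 5 in bzip60, 4 to 6 in bzip28bzip60, 5 to 8 in ire1aire1b and 5 to 6 in WT, and 0 to 1 for bzip28 against WT on the ground. The cause of these changes was not tested. A pseudocount of 0.1, a filter at 5 FPKM and a fit without trend changed no direction or call of the members. Of 180 changes, an equal sum over nuclear genes lost 4 calls, a lane term lost 8 and gained 1, and no filter lost 1, that of HSFA1B in ire1aire1b (-0.24), which 5 fits without 1 library also lost. The fits without libraries of a log2 factor below -1 gained 2. The within-lane fits and title terms were chosen after seeing the data. Without read counts, counting error could not be separated from the spread of the libraries.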
